A study of Homo sapiens with 8 samples.

Results

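Footprints of 10 genes of the mono-ADP-ribosyltransferase (MART) family were examined in ribosome profiles of the human ovarian cancer cell line OVCAR3. They are PARP14, PARP9, PARP10, PARP12, TIPARP (the gene of PARP7), PARP16, PARP4, PARP8, ZC3HAV1 (PARP13, also called ZAP) and ZC3HAV1L, its paralog. Each of the 10 symbols matched exactly 1 of the 20165 gene regions in the files, so all members were found. Ribosome profiling (Ribo-seq) sequences the stretches of mRNA that ribosomes shield from RNase, and a footprint count over a coding sequence therefore follows both mRNA abundance and ribosome load. The 8 libraries formed 4 groups of 2. In the RACK1 experiment, all cells carried a pTRIPZ shRNA against RACK1 and a doxycycline-inducible HA-tagged RACK1 cDNA, both delivered by lentivirus, and received 1 µg/ml doxycycline. The cDNA encoded either the wild-type protein (RACK1-WT) or one mutated at its MARylation acceptor sites (RACK1-Mut), and the shRNA lowers the cells' own RACK1. Transduced cells were selected with antibiotics, and the sources used here do not say whether they were single clones. In the siRNA experiment, cells without these constructs were transfected with 30 nM control siRNA (siControl) or an siRNA against OARD1 (siTARG1), whose product TARG1 hydrolyses ADP-ribose. Harvest followed 48 h after doxycycline or transfection. The members were chosen by family with the CDS counts and fold changes of both comparisons already known, so these values are given as a description, without p-values. In such bulk samples, fewer cells of a kind and less RNA per cell cannot be told apart. The labels number the replicates without saying how they were grown, and the methods describe sequencing experiments in general as repeated on independent biological samples.

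MARTs move a single ADP-ribose from NAD+ onto proteins, a modification named MARylation, whereas PARP1 and the tankyrases build chains. PARP14 and PARP9 are macrodomain proteins that also bind ADP-ribose, and PARP9 works as a heterodimer with the ubiquitin ligase DTX3L. PARP14 is the enzyme that the study names as the writer of RACK1 MARylation, and TARG1 the eraser. Several members are known as interferon-stimulated genes, among them PARP9, PARP10, PARP12, PARP14 and ZC3HAV1. ZC3HAV1 is a catalytically inactive relative that binds CpG-rich viral RNA and recruits RNA decay factors.

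Coding sequence (CDS) counts summed to 3100947 to 6604190 per library, and the 10 genes took 0.0923% to 0.0953% of them in the RACK1 experiment and 0.157% to 0.204% in the siRNA experiment. All 10 markers of ovarian carcinoma epithelium, such as PAX8 and MUC16, had at least 10 CDS counts in every library. So did COL1A1 of the fibroblast markers, and none of the leukocyte or endothelial markers. CD3E and LYZ (leukocytes) and CDH5 (endothelium) had 0 in every library, and the other matched markers of these lists had some counts. The summed level of the epithelial markers (CDS footprints per kilobase of coding sequence and per 1000000 CDS footprints of the library) was 4477 and 4878 in the siTARG1 libraries, 6715 and 6836 in the siControl libraries and 7740 to 8153 in the RACK1 experiment. Its part in the results below was not tested. The summed level was 1.26 to 7.38 for the leukocyte, 5.88 to 9.31 for the fibroblast and 0.0753 to 0.338 for the endothelial markers. OARD1 had 121.3 and 69.1 normalized counts in siControl and 5.83 and 6.75 in siTARG1 cells, or 6.51% of the control level. RACK1 stood at 74.6% of the RACK1-WT level in RACK1-Mut cells, with the re-expressed and the cell's own RACK1 counted together. The mutation and this lower RACK1 count cannot be told apart in the comparison of these groups. In siTARG1 cells RACK1 stood at 84.0% of the siControl level.

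PARP9 and PARP14 were the members with the densest footprints. Levels, in the unit just given, allow genes of different length to be compared. PARP9 had a level of 193.1 and 174.1 in siControl, 205.6 and 206.7 in siTARG1, 93.1 and 90.1 in RACK1-WT, and 87.2 and 78.3 in RACK1-Mut cells. PARP14 followed with 128.6 and 104.9, 147.3 and 145.0, 54.6 and 54.7, and 52.7 and 54.5 in the same order of groups. These levels ranked PARP9 at the 92nd and PARP14 at the 88.5th percentile of the 12056 genes tested in the siRNA experiment. In the RACK1 experiment the ranks were lower, at percentiles 83.9 and 76 of the 12520 genes tested. Together they made up 47.0% to 60.6% of the summed level of the 10 genes in a library. In every group, neither the PARP9 and PARP14 libraries nor those of PARP14 and the next gene overlapped.

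The remaining genes spread over a wide range below them. ZC3HAV1 had levels of 60.2 to 67.6 in the siRNA experiment and 33.7 to 35.9 in the RACK1 experiment. PARP4, which encodes the vault-associated PARP, had a level of 30.6 to 40.9 over all 8 libraries and was the steadiest member, its highest level being 1.34 times its lowest. PARP12, a CCCH zinc finger MART of the Golgi and stress granules, varied most after ZC3HAV1L, from 9.33 to 40.3. TIPARP, a negative regulator of the aryl hydrocarbon receptor, had a level of 16.3 to 30.9. PARP10 had 8.62 to 20.01 and PARP8 had 6.69 to 16.1. PARP16, a tail-anchored MART of the endoplasmic reticulum was lowest in each group, with 3.12 to 7.85. Its level came from only 15 to 40 CDS counts per library, so its fold changes carried the widest errors of the 10.

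Some neighbours in the order could not be separated. In siControl cells the order was PARP9, PARP14, ZC3HAV1, PARP12, PARP4, TIPARP, PARP10, ZC3HAV1L, PARP8 and PARP16, and the libraries overlapped between PARP12 and PARP4 and between ZC3HAV1L and PARP8. In RACK1-WT cells the libraries of PARP10 and PARP12 overlapped, and in RACK1-Mut cells those of ZC3HAV1 and PARP4, of PARP12 and PARP10, and of PARP10 and PARP8. In siTARG1 cells ZC3HAV1L stood next after PARP14, above ZC3HAV1, and PARP12 overlapped with TIPARP.

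**Figure D1:**
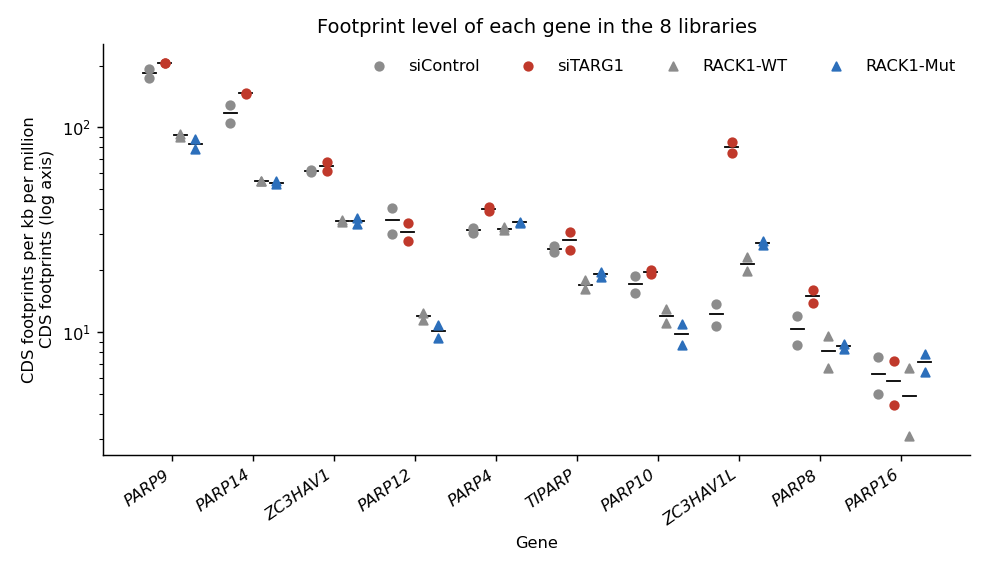
Level of each of the 10 genes (CDS footprints per kilobase and per 1000000 CDS footprints, log axis) in the 8 libraries. Points are libraries, short lines the means of 2 libraries. PARP9 and PARP14 are highest in every group, and ZC3HAV1L rises from 10.7 and 13.7 in siControl to 75.3 and 84.9 in siTARG1 libraries.

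Most members had lower levels in RACK1-WT than in siControl cells, the interferon-linked ones and others alike. The mean level of PARP12 was 35.1 ± 7.26 (SD, n = 2) in siControl and 11.9 ± 0.726 in RACK1-WT cells, that of PARP9 183.6 ± 13.5 and 91.6 ± 2.15, that of PARP14 116.8 ± 16.7 and 54.6 ± 0.0824, and that of ZC3HAV1 61.1 ± 1.26 and 34.98 ± 0.586. The means also lay lower for PARP10 (17.1 ± 2.24 and 12.02 ± 1.25), TIPARP (25.4 ± 1.23 and 17.1 ± 1.15), PARP8 (10.4 ± 2.38 and 8.13 ± 2.03) and PARP16 (6.28 ± 1.84 and 4.89 ± 2.51), with the libraries of PARP8 and of PARP16 overlapping between the groups. PARP4 had 31.4 ± 1.19 and 31.9 ± 0.746. ZC3HAV1L stood the other way, with 12.2 ± 2.101 in siControl and 21.5 ± 2.25 in RACK1-WT cells. The siControl and RACK1-WT cells differ in constructs, doxycycline and transfection, which cannot be told apart here, and no test was made across the experiments.

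To describe footprint counts on the MART genes with the RACK1 MARylation sites lost, RACK1-Mut libraries were set against RACK1-WT libraries. None of the 10 genes was called. In the DESeq2 fit, the adjusted p was under 0.05 for 10 of 12520 genes (0.0799%), all lower, and for 0 of the 10 members. No member had an unadjusted p under 0.05 in that fit either, against 1.64% of all genes, and edgeR, which called 0.24% of all genes, also called 0 members. The groups did not overlap for 7 members, beside 37.6% of all genes, and 5 members had a log2 fold change below 0, beside 50.4%. Because the members were chosen with this comparison known, and few of all genes were called, nothing is read from these counts. The largest fall in value was that of PARP10 and the largest rise that of PARP16, which has the fewest counts.

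PARP14 had 1506 and 1491 normalized counts in the RACK1-WT libraries and 1420 and 1475 in the RACK1-Mut libraries. The RACK1-Mut libraries were the lower ones, but the log2 fold change was only -0.05 (SE 0.0868), with a 95% interval of -0.22 to 0.12. PARP9 had 1244 and 1190 against 1137 and 1027 (-0.17, SE 0.0974). For PARP10 the counts were 177.0 and 202.6 against 169.4 and 134.5 (-0.32, SE 0.208). PARP12 had 122.9 and 132.4 against 97.8 and 114.7 (-0.27, SE 0.240). In all 4 of these genes both RACK1-Mut libraries lay below both RACK1-WT libraries, which 18.9% of all genes tested also showed. The PARP10 value moved most of the 4 with the libraries used, being -0.16 without RACK1-Mut replicate 2 and -0.50 without replicate 1.

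The other 6 members, ZC3HAV1 among them although it too is interferon-stimulated, did not show this separation. TIPARP (0.14, SE 0.195), PARP4 (0.08, SE 0.103) and ZC3HAV1L (0.31, SE 0.244) had both RACK1-Mut libraries above both RACK1-WT libraries, as did 18.7% of all genes tested. ZC3HAV1L had 92.0 and 105.4 against 125.3 and 120.0 normalized counts. ZC3HAV1 had 542.6 and 549.1 against 549.9 and 519.4, a log2 fold change of -0.03 (SE 0.122) with overlapping groups. PARP8 (0.04, SE 0.262) and PARP16 (0.53, SE 0.494) also overlapped. Among the RACK1-WT libraries PARP16 had 15.5 and 32.7 normalized counts, and its log2 fold change moved from 1.16 to 0.08 depending on which of them was left out.

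**Figure D2:**
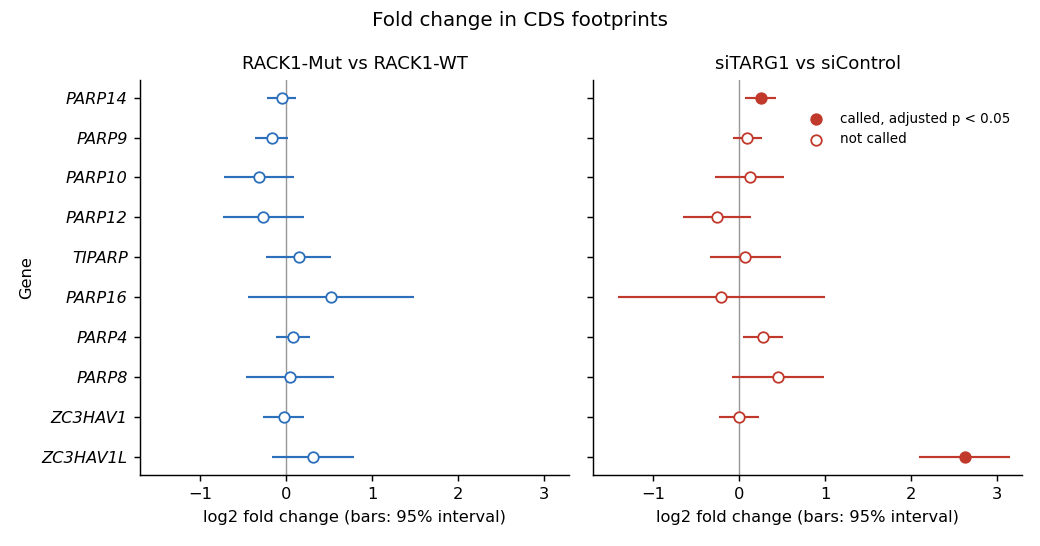
log2 fold change of CDS footprints for the 10 genes in each comparison, with bars for the 95% interval from DESeq2 (2 libraries against 2). Filled points are genes called at an adjusted p under 0.05 over all genes. In RACK1-Mut cells every bar crosses 0, and in siTARG1 cells ZC3HAV1L lies at 2.63, far from the other 9.

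The promoters of PARP14, PARP9 and PARP12 share a feature that the counts did not use. They are shown because these genes are known interferon targets and held the match described here. RefSeq promoters (GRCh38.p14, 250 bases before to 50 after the start) were listed for 8 of the 10 genes. They were searched for GAAANNGAA or its reverse complement TTCNNTTTC, the core of an interferon-stimulated response element, which 8.11% of 35116 promoters hold. PARP14, PARP9 and PARP12 each held 1 match, close before the start of transcription, and TIPARP, PARP16, PARP8, ZC3HAV1 and ZC3HAV1L held none. The matching letters are in capitals below, each sequence reading along the strand of its gene.
PARP14 (GRCh38 chr3:122680800-122680828, plus strand, 29 bases before the start): tccaggaaacGAAAGCGAAagagtcaaag
PARP9 (GRCh38 chr3:122564322-122564350, minus strand, 40 bases before the start): ggcgcaaagtTTCAGTTTCgcttccctgg
PARP12 (GRCh38 chr7:140062942-140062970, minus strand, 9 bases before the start): cggggccgctTTCGGTTTCgtttcccgcc
A match to the palindromic TTCNNNGAA, the core of a gamma-activated site, occurred in 7.66% of promoters. It was found in PARP14, where it lies just before the match above and shares no base with it, and in ZC3HAV1.
PARP14 (GRCh38 chr3:122680789-122680817, plus strand): cctgggagttTTCCAGGAAacgaaagcga
ZC3HAV1 (GRCh38 chr7:139109806-139109834, minus strand): ggtctgctctTTCCGGGAAtgggtggggt
The dioxin response core GCGTG or CACGC, through which the aryl hydrocarbon receptor acts, was common (36.5% of promoters) and was present in PARP12, TIPARP, PARP8, ZC3HAV1 and ZC3HAV1L. A match shows letters and not a bound factor.

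Interferon-stimulated genes outside the 10 members were then read beside them. A list of 60 such genes left 52 that matched 1 region each, and all 52 were tested. In RACK1-Mut cells the list had a median log2 fold change of -0.21, against -0.00 over all genes tested, with 46 of 52 values below 0 and 6 above. Both RACK1-Mut libraries lay below both RACK1-WT libraries for 33 of the 52, beside 18.9% of all genes. With a library left out the median ran from -0.23 to -0.18. DESeq2 called 3 of them lower and 0 higher, 12 had an unadjusted p under 0.05, and the 5 that edgeR called were all lower. Over all genes, DESeq2 called 0.0799%, 1.64% had an unadjusted p under 0.05, and edgeR called 0.24%. IFI6, a mitochondrial interferon-induced protein, had 2066 and 2097 against 1414 and 1560 normalized counts (-0.49 on the log2 scale, SE 0.0865, adjusted p 5.93e-05), and IFI27 had 537.2 and 564.6 against 367.4 and 384.9 (-0.55, SE 0.131, adjusted p 0.0329). With the replicate number as a block 1 was called lower, and with any library left out 0. Of the 10 members, 5 had a value below 0. All 10 lie within the range of this list, from -0.80 to 1.09, but that range is set by its extreme genes and tells little. The list was written with its shift already known and gives no independent support for it.

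**Figure D3:**
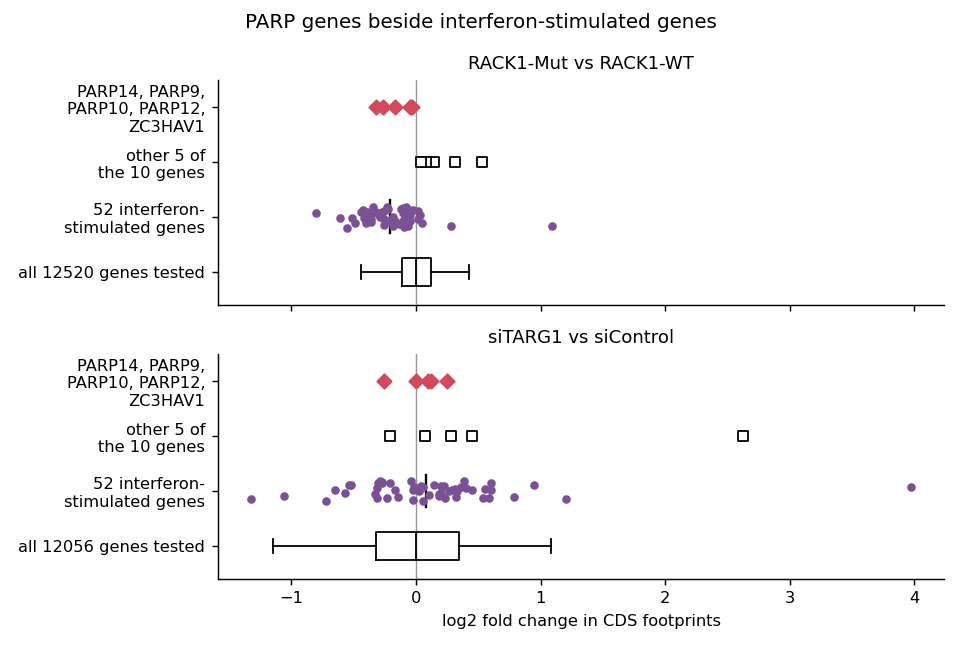
log2 fold change of CDS footprints in each comparison for the members known as interferon-stimulated, PARP14, PARP9, PARP10, PARP12 and ZC3HAV1 (diamonds), the other 5 genes of the 10 (squares), 52 interferon-stimulated genes (dots, line at the median) and all genes tested (box: quartiles, whiskers: 5th to 95th percentile). In RACK1-Mut cells the list has its median at -0.21. In siTARG1 cells the median is 0.08 and the values spread to both sides of 0.

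Depletion of TARG1 was accompanied by a large rise in ZC3HAV1L. The other members had log2 fold changes from -0.26 (PARP12) to 0.45 (PARP8). Of 12056 genes tested, 1974 (16.4%) were called in siTARG1 against siControl cells, 866 higher (7.18%) and 1108 lower (9.19%). Of the 10 members, 2 were called, both higher. An unadjusted p under 0.05 was found for 3 members and for 26% of all genes, edgeR called 3 members and 28.8% of all genes, the groups did not overlap for 5 members and 62.6% of all genes, and 2 members and 49.6% of all genes had a log2 fold change below 0. Because the members were chosen with this comparison known, nothing is read from these counts.

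For ZC3HAV1L, siControl libraries gave 45.7 and 35.8 normalized counts and siTARG1 libraries 238.1 and 271.0. The raw counts were 52 and 30 against 286 and 241. The siTARG1 libraries were far above the siControl libraries, a 6.18-fold difference (log2 fold change 2.63, SE 0.269), and only 52 of the 12056 genes tested (0.431%) had a value as high. Leaving out a library moved the log2 value over 2.47 to 2.82. ZC3HAV1L encodes a short protein that resembles the N-terminal part of ZC3HAV1 and has no MART domain. It lies 7472 bases from ZC3HAV1 on chromosome 7 (GRCh37, 138710452 to 138720788 and 138728261 to 138816868, both on the minus strand).

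ZC3HAV1 itself stayed level. It had 684.7 and 704.5 normalized counts in siControl and 657.6 and 735.5 in siTARG1 cells, overlapping groups with a log2 fold change of 0.00 (SE 0.119) and a 95% interval of -0.23 to 0.24. Reads with many hits were allowed by the authors, but no stretch of 28 bases in either coding sequence occurred unchanged in a transcript of another gene. Matches with mismatches, which alignment can also accept, were not searched. The same held for PARP14, PARP9, PARP10, PARP12, TIPARP and PARP16. By contrast, 25.0% of the 28-base stretches of the PARP4 coding sequence also occurred in its pseudogenes or other loci, and 0.985% of those of PARP8, and PARP4 counts are therefore uncertain.

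**Figure D4:**
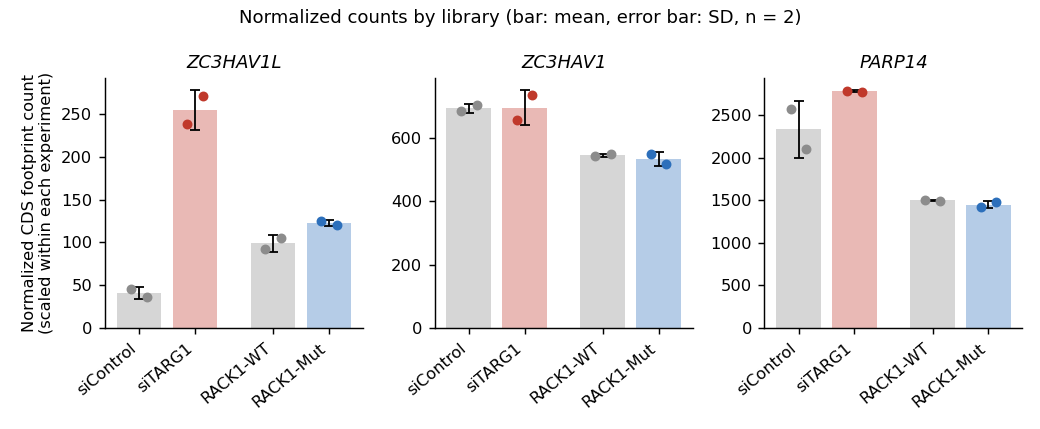
Normalized CDS footprint counts of ZC3HAV1L, ZC3HAV1 and PARP14 in the 4 groups (points: libraries, bars: mean, error bars: SD, n = 2). Counts were scaled within each experiment, so bars of the siRNA and RACK1 experiments are not on 1 scale. ZC3HAV1L goes from a mean of 40.7 to 254.5 in siTARG1 cells, and the ZC3HAV1 libraries of each pair of groups overlap.

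PARP14 had 2571 and 2097 normalized counts in siControl and 2788 and 2773 in siTARG1 cells. The siTARG1 libraries agreed closely and lay above both siControl libraries, which differed from each other by more than siControl replicate 1 differed from siTARG1. The log2 fold change was 0.25 (SE 0.0932), and it was 0.40 without siControl replicate 1 and 0.11 without siControl replicate 2. PARP14 was no longer called with exon counts, with the replicate number as a block, or without any 1 of siControl replicate 2, siTARG1 replicate 1 and siTARG1 replicate 2.

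Among the other members, PARP9, PARP4 and PARP8 had both siTARG1 libraries above both siControl libraries, as did 31.2% of all genes tested, and none was called. PARP4 had 617.9 and 585.3 against 740.8 and 717.5 normalized counts (0.28 on the log2 scale, SE 0.118). PARP8 had 114.3 and 82.3 against 124.9 and 146.2 (0.45, SE 0.273), and PARP9 had 1869 and 1684 against 1885 and 1914 (0.09, SE 0.0864). The groups overlapped for the rest. PARP12 had 313.8 and 233.6 against 250.5 and 208.0 (-0.26, SE 0.201), PARP10 had 215.3 and 178.8 against 209.8 and 220.4 (0.12, SE 0.202), and TIPARP had 179.3 and 191.9 against 174.8 and 215.9 (0.07, SE 0.212). For PARP16, with 15 to 31 raw counts in these libraries, the value of -0.21 (SE 0.614) had a 95% interval of -1.41 to 0.99.

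The 3′ UTRs of the members were examined for short sequences that siTARG1-changed genes share. All 7-mers were ranked by how much more often the longest annotated 3′ UTR of a gene called higher held them than that of a gene not called. TGAATAT and GAATATA came first and second, and 1 or both were present in 48.9% of 857 genes called higher, 25.6% of 1091 called lower and 24.1% of 8994 not called. For genes called lower, TGAACAT and GAACATA came first and second (38.5%, beside 17.8% of genes not called). The median 3′ UTR was 1837 bases long in genes called higher, 1537 in genes called lower and 1305 in genes not called, and longer UTRs hold more 7-mers by length alone. These 7-mers were ranked on the siTARG1 comparison itself, so their presence in a member is a description. The sequence of the siRNA was not used here, and the link of these 7-mers to any change was not tested.

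ZC3HAV1L and PARP14, the called members, each held 1 site of the first pair and none of the second. So did TIPARP, which was not called. PARP8 held 2 sites of each pair, ZC3HAV1 1 of each, and PARP9 1 of the first and 2 of the second. PARP10, PARP12, PARP16 and PARP4 held neither. The ZC3HAV1L site joins both 7-mers into 1 run and lies 124 bases from the end of a 3′ UTR of 838 bases. One site of PARP8 joins them too, in a 3′ UTR of 4451 bases. The sites below are those that hold TGAATAT. The PARP9 site of the first pair and the other such PARP8 site hold GAATATA alone and are not shown. Positions are on GRCh37, read along the gene's strand, with the 7-mers of genes called higher in capitals.
ZC3HAV1L (chr7:138710566-138710593, minus strand): taacaaatttTGAATATAactcctgtct
PARP8 (chr5:50138484-50138511, plus strand): tgtgtggttgTGAATATAtttgtgtata
PARP14 (chr3:122449555-122449581, plus strand): agggcaaggcTGAATATcagagtgtat
TIPARP (chr3:156424013-156424039, plus strand): caacgtttggTGAATATgctgtttcct
ZC3HAV1 (chr7:138728627-138728653, minus strand): actgacctacTGAATATctagcatcct

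Other genes of ADP-ribosylation were counted from lists. Of 8 further PARP genes, 4 were tested in the siRNA experiment and 2 were called, both higher. Of all genes tested there, 16.4% were called and 7.18% were called higher. TNKS, a tankyrase that builds poly(ADP-ribose) chains, had 251.4 and 245.6 against 435.3 and 425.1 normalized counts (0.79 on the log2 scale, SE 0.158, DESeq2 adjusted p 1.34e-05). TNKS2 had 322.6 and 300.4 against 521.1 and 457.7 (0.65, SE 0.152, DESeq2 adjusted p 0.000278). One of the pair was called without siControl replicate 2 or without siTARG1 replicate 1. PARP1, the main DNA damage PARP, had 765.5 and 764.1 against 749.1 and 717.5 normalized counts (-0.06, SE 0.112, adjusted p 0.799). In RACK1-Mut cells 5 were tested, 0 were called by DESeq2 or edgeR, and 0 had an unadjusted p under 0.05.

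Of 19 hydrolases, readers and partners of ADP-ribose, 17 were tested in the siRNA experiment. There, 1 was called higher and 2 lower, beside 7.18% and 9.19% of all genes. NUDT9, an ADP-ribose pyrophosphatase, was called higher (0.75, SE 0.234, DESeq2 adjusted p 0.012), though 0 of the list were called higher when the replicate number was a block or any library was left out. The targeted OARD1 and RNF114, a ubiquitin ligase that reads ADP-ribose, were called lower. RNF114 had 972.1 and 982.2 against 440.3 and 475.7 normalized counts (-1.10, SE 0.117, adjusted p 1.19e-18). In RACK1-Mut cells 18 were tested, 0 were called by DESeq2 or edgeR, and 0 had an unadjusted p under 0.05.

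Cofactors and pathway partners of single members were also counted, beside the 16.4% of all genes called in siTARG1 cells (7.18% higher, 9.19% lower). Of 11 ZAP cofactors, 1 was called lower in siTARG1 cells, the RNA helicase DDX17 (-0.26, SE 0.0960, DESeq2 adjusted p 0.0384). DDX17 was not called from exon counts, under the replicate block or without any 1 of the libraries. In the aryl hydrocarbon receptor pathway of TIPARP, 10 genes were tested. NQO1, a receptor target, was called lower (-0.42, SE 0.0999, adjusted p 0.000465), and the chaperone HSP90AB1 higher (0.21, SE 0.0592, adjusted p 0.00327), and neither call was kept with any library left out. Under the replicate block the NQO1 call stayed and that of HSP90AB1 was lost. A PARP16 list of 10 genes joined its substrates with genes around the unfolded protein response, in which it acts. Of these, 3 were called higher and 0 lower. KPNB1 is a nuclear import receptor described as a PARP16 substrate (0.42, SE 0.0727, adjusted p 2.17e-07). The others were HSPA5 (0.35, SE 0.0643, adjusted p 1.29e-06) and ATF4 (0.51, SE 0.145, adjusted p 0.00493). Without any 1 of the libraries 2 were called. The median of that list was 0.30, beside 0.00 over all genes tested. In RACK1-Mut cells DESeq2 called 0 genes of these 3 lists, edgeR called 1, in the PARP16 list, and 1 gene of that list had an unadjusted p under 0.05.

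In siTARG1 cells the interferon-stimulated list did not move one way. DESeq2 called 7 genes higher and 7 lower of 52, beside 7.18% and 9.19% of all genes, with a median of 0.08. Without 1 library, 3 to 6 were called higher and 3 to 4 lower. GBP2, an interferon-induced GTPase, fell from 1354 and 1228 to 603.5 and 638.7 normalized counts (-1.06, SE 0.108, adjusted p 1.75e-20), and BST2 (tetherin) fell from 706.6 and 596.0 to 233.1 and 290.1 (-1.33, SE 0.157, adjusted p 3.59e-15). IFI27 rose from 350.7 and 308.7 to 642.6 and 629.7 (0.94, SE 0.139, adjusted p 6.62e-10), and OAS3 from 871.9 and 709.3 to 1160 and 1138 (0.54, SE 0.115, adjusted p 6.49e-05). The interferon-linked members lay between these, from -0.26 for PARP12 to 0.25 for PARP14.

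Nearly all footprints of the members lay in their coding sequences. Summed over the 8 libraries, the 5′ UTR held 0.0963% of PARP14 footprints (16 counts) and 1.55% of PARP9 footprints (194 counts), beside 4.10% over all genes. Higher shares were seen for TIPARP at 3.72% (58 counts, 95% Wilson interval 2.89% to 4.78%) and PARP8 at 4.25% (41 counts, 3.15% to 5.72%). The share of PARP16 was 5.16%, but from only 11 counts (2.91% to 9.01%). These shares are not corrected for length, and the 5′ UTR of TIPARP has 1201 bases. Per base, the 5′ UTR density over that of the CDS was 0.347 in PARP8 and 0.341 in PARP10. It was 0.119 in PARP16, 0.0953 in PARP9, 0.0636 in TIPARP and 0.0196 in PARP14. ZC3HAV1L had 0 counts in its annotated 5′ UTR, which is only 12 bases long. The shares varied among libraries, on few counts. In PARP9 the share was 1.19% to 2.00% across the libraries, with the groups overlapping in both experiments. In PARP14 it was 0% and 0.0547% in RACK1-WT and 0.251% and 0.356% in RACK1-Mut libraries, which did not overlap, from 1 count against 7 (Wilson intervals 0.00468% to 0.15% and 0.146% to 0.622%), and the siRNA groups overlapped. In PARP8 it was 4.33% in siControl (9 counts), 1.05% in siTARG1 (3 counts, 0.359% to 3.05%), 7.59% in RACK1-WT (22 counts, 5.06% to 11.2%) and 3.87% in RACK1-Mut cells (7 counts). The PARP8 libraries of siTARG1 lay below those of siControl, while those of the RACK1 groups overlapped. PARP14 was not alone, as PARP10, TIPARP and PARP4 also had both RACK1-Mut shares above both RACK1-WT shares. Over all genes the share was 4.15% and 4.22% in RACK1-WT and 3.85% and 3.97% in RACK1-Mut libraries. In the siRNA experiment the PARP10 shares also lay lower in siTARG1 and those of PARP16 higher. No further separation was seen among the members. No test was made of these shares. The 3′ UTRs held at most 0.941% of a member's footprints, the value of ZC3HAV1L, from 10 counts. These intervals cover counting error only.

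By the rule set for naming similar genes, those whose normalized counts followed PARP14 most closely over the 8 libraries, after the mean of each experiment was taken off, were ADCY6 (Pearson r 0.987), KLC2 (0.980) and PPP5C (0.980) among 5738 genes. For ZC3HAV1L they were DPY19L3 (0.996), ZNF331 (0.996) and KMT2B (0.996). The differences between groups within an experiment, already known when the members were chosen, enter these correlations. With so few libraries high values are common, and they are given as a description.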

How the data were processed

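Ribo-seq libraries of OVCAR3 cells were compared within each experiment, with groups and replicate numbers from the sample titles. The deposited values are footprint counts made by the authors with Plastid for 20165 gene regions of GENCODE release 24 on hg19 (GRCh37). Per the file headers, reads of 26 to 36 nt were placed 14 nt from their 5′ end. In the methods, contaminants were removed with Bowtie 1.1.2 (version from the submitters' processing notes) and reads aligned with TopHat2 2.1.1, allowing up to 64 hits per read. The methods place reads from the 3′ end instead, and which convention made the counts was not resolved. Whether reads sharing a molecular identifier were collapsed is not stated.

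Regions were named through GENCODE release 44 lifted to GRCh37 (19612 regions, 97.3%). Following the study's methods, CDS counts of the whole table with at least 10 counts over the 4 libraries of a comparison were fitted with DESeq2 1.42.0 in R 4.3.3 (Wald test, median-of-ratios factors), calling genes at a Benjamini-Hochberg adjusted p under 0.05. Normalized counts are scaled by those factors. edgeR 4.0.16 (quasi-likelihood, TMM) and other filters, scalings, regions and sample sets were alternatives. Members and gene lists were chosen with earlier results of these data known. Genes named are the 10 members, OARD1, RACK1, called genes of the lists (up to 8 with the smallest adjusted p) and the 3 genes most like PARP14 and ZC3HAV1L. PARP1 was named after their values were seen, and 1 called interferon-stimulated gene is not reported here. RNA-seq was not analysed here, so no translation efficiency is given.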

Additional observations from a re-analysis of the deposited data

How the results depend on the processing

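Replicate numbers are shared by the groups of each comparison, but nothing in the labels says that a number marks a shared batch, and same-numbered libraries deviated together only weakly (correlation of deviations 0.117 in the RACK1 and 0.0364 in the siRNA experiment). With the replicate block, 6 genes were called in RACK1-Mut and 1125 in siTARG1 cells, 1 of the latter a member (ZC3HAV1L). With edgeR the counts were 30 and 3470. Genes called ran from 1 to 3 in RACK1-Mut and from 564 to 744 in siTARG1 cells when 1 library was left out, where the lone library was assumed to vary like the other arm, and members called in siTARG1 cells from 1 to 2. With exon counts 1 member was called, and with edgeR, an adjusted p under 0.1 or all 8 libraries in 1 fit 3 were. In RACK1-Mut cells 0 members were called under each alternative.

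With all libraries kept, 0 of 140 log2 values of the members moved by more than the spread between replicates. With 1 left out, PARP14 in siTARG1 cells ran from 0.11 to 0.40 and PARP16 in RACK1-Mut cells from 0.08 to 1.16. Signs changed for 3 of the 140 and for 8 of 80 values with 1 library left out, for PARP8 and ZC3HAV1 in RACK1-Mut cells and for ZC3HAV1, PARP10, TIPARP and PARP16 in siTARG1 cells, each with a main value within 1 SE of 0. Depth limits PARP16 most, at 15 to 40 counts per library.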
